A study of Mus musculus with 16 samples.

Results

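The Notch receptor and ligand genes comprise the 4 receptors *Notch1*, *Notch2*, *Notch3* and *Notch4* and the 5 ligands *Jag1*, *Jag2*, *Dll1*, *Dll3* and *Dll4*, which are 9 of 21951 annotated protein-coding genes. Their pairs were collected from the Input and H3K27me3-RADIP tables by the name of the RNA. In RADIP, RNA and the chromatin DNA close to it are ligated to a bridge adaptor in fixed nuclei, and an antibody then pulls down the chimeric molecules. The antibody was against H3K27me3, the histone mark laid down by Polycomb complexes. Input molecules came from a part of the same lysate that was kept without antibody selection. All libraries came from untreated PGK12.1 mouse embryonic stem cells (mESCs), a single line grown in serum with leukemia inhibitory factor and fixed with 1% formaldehyde. The labels hold 8 libraries of each condition, from 4 biological replicates that the labels do not tie to libraries, and the authors merged them into 1 table per condition, so no replicate error can be given and every test below compares those 2 merged libraries, not the conditions.

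Notch receptors are membrane proteins that are cleaved when a Jagged or Delta-like ligand on a neighbouring cell binds them. The released intracellular domain enters the nucleus, joins the DNA-binding protein Rbpj and switches on target genes such as the *Hes* and *Hey* repressors. The pathway is known for steering cell fate choices as stem cells leave pluripotency, and many developmental genes of this kind carry H3K27me3 over CpG-rich promoters in mESCs.

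Each line of a table gives an RNA tag with its DNA tag, called a pair, and the authors listed a pair only if the combination of its RNA and the 25-kb DNA bin passed an adjusted *P*-value of 0.1. No combination had fewer than 7 pairs, so a gene without a line may still have made contacts below that level. Input held 1305107 pairs and H3K27me3-RADIP held 1415135 pairs, in which 3 pairs make up 0.000230% and 0.000212%. Repeats of a pair at identical positions accounted for 6.79% of Input lines and for 9.74% in H3K27me3-RADIP. The tables carry no molecular identifiers, so intervals cover counting error only. Of 10 pluripotency markers, 4 were listed in Input and 5 in H3K27me3-RADIP, led by *Esrrb* with 2388 and 2500 pairs, whereas *Pou5f1*, *Nanog*, *Tdgf1*, *Prdm14* and *Dppa5a* had none in either library. Neural markers had pairs for 2 and 3 of 5 genes, mesoderm and endoderm markers for 2 and 2 of 6, and fibroblast markers for 0 and 1 of 5, with summed pairs of 130 and 137, 38 and 56, and 0 and 7. The part of these markers in the results below was not tested. In such bulk libraries, fewer cells of a type and less RNA per cell cannot be told apart.

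The tags below show what a pair consists of. They were read from the mm10 genome at the listed positions, 5′ to 3′ on the strand of the tag, and the capital marks the central base from which distances were measured. For *Notch1* and *Notch2*, and for the members listed only in H3K27me3-RADIP, *Notch3* and *Dll1*, the pair shown is the H3K27me3-RADIP pair that reached farthest from an intronic RNA tag.
Notch1 RNA tag: tctcagcttcctGccgctgtgggag
Notch1 DNA tag: ggatagcctctgCtgccccctggct
Notch2 RNA tag: cttctgtttctaGaaccctttgctc
Notch2 DNA tag: tgttcgggctgcTacgatgtggatt
Notch3 RNA tag: aggtgactcagaGtttttggcggga
Notch3 DNA tag: ccatctctctcaGccctcagtatag
Dll1 RNA tag: ggtgttatcattAccaacctgagca
Dll1 DNA tag: agttattattgtTtttctttattgc
The *Notch1* RNA tag lay at chr2:26490583-26490607 on the minus strand and its DNA tag 308 kb away at chr2:26182849-26182873, where no gene is annotated. The *Notch2* RNA tag lay at chr3:98136909-98136933 on the plus strand and its DNA tag 455 kb away at chr3:97681683-97681707, also outside annotated genes. The *Notch3* RNA tag at chr17:32129558-32129582 on the minus strand was paired with DNA 40.2 kb away at chr17:32169730-32169754, just before the start of the gene. The *Dll1* RNA tag at chr17:15373708-15373732 on the minus strand was paired with DNA 24.2 kb away at chr17:15397914-15397938, in an intron of the neighbouring gene *Fam120b*.

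Pairs were listed for 5 of the 9 genes in Input and for 7 of them in H3K27me3-RADIP. *Notch1*, *Notch2*, *Notch4*, *Jag1* and *Jag2* were listed in both libraries, *Notch3* and *Dll1* in H3K27me3-RADIP only, and *Dll3* and *Dll4* in neither. Over all annotated protein-coding genes, 42.3% were listed in Input, 43.7% were listed in H3K27me3-RADIP and 6.59% in H3K27me3-RADIP only. The members summed to 487 pairs in 27 combinations of RNA and bin in Input and to 637 pairs in 36 combinations in H3K27me3-RADIP. *Notch1* and *Notch2* together supplied 87.3% of the Input pairs and 76.0% of those in H3K27me3-RADIP. Every one of the RNA tags lay on the strand of its gene, and no member had a *trans* pair, that is, a DNA tag on another chromosome.

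**Figure D1:**
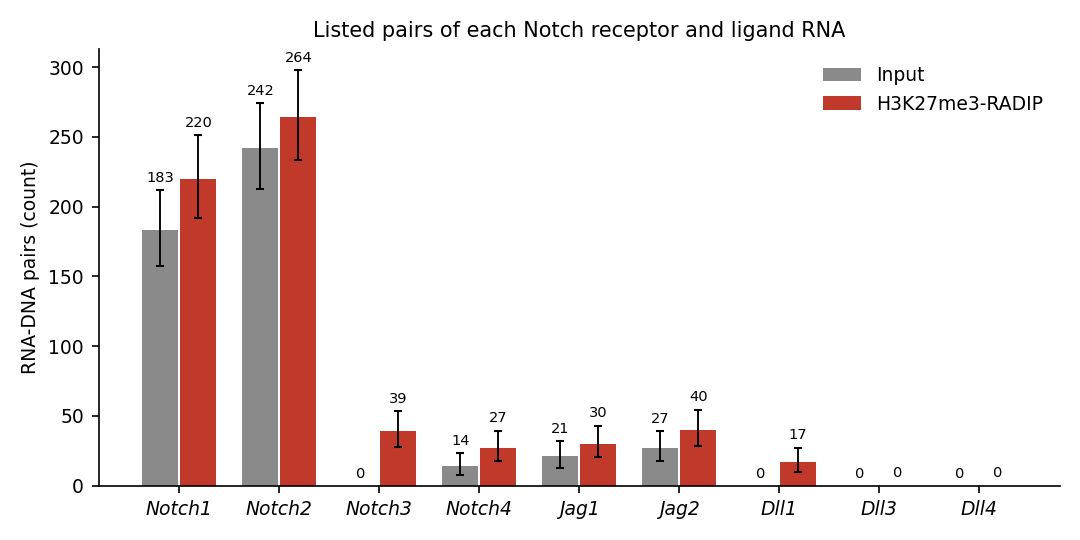
Pairs of each member RNA in Input (grey) and H3K27me3-RADIP (red), as counts with 95% Poisson intervals that cover counting error only. *Notch1* and *Notch2* have 183 to 264 pairs, the other listed members 14 to 40, and 0 marks a member that is not listed in that library.

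None of the 5 members listed in both libraries was called different in pair count. The exact negative binomial test, run over all 8158 shared protein-coding RNAs with an assumed coefficient of variation of 0.1, called 15.4% of these RNAs. A call required an adjusted *P*-value up to 0.1 and a log2 change of 0.5 or more in size. It called 7.15% higher and 8.29% lower in H3K27me3-RADIP. No member passed an unadjusted *P*-value of 0.05, which 1951 of all RNAs did. The log2 fold change was above 0 for 5 of 5 members and for 49.6% of all RNAs, but that of *Notch2* turned to -0.039 at a q-value limit of 0.01 and to -0.0069 over combinations listed in both libraries. Its median was 0.48 over the members and -0.01 over all RNAs.

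*Notch1*, a receptor needed for somite and blood vessel formation, spans 58.8 kb at chr2:26457903-26516663 on the minus strand. *Notch1* RNA had 183 pairs in Input against 220 in H3K27me3-RADIP (log2 fold change, 0.23; 95% interval, -0.06 to 0.52; adjusted *P* = 0.651 by the exact test). These pairs reached 9 bins in Input and 10 in H3K27me3-RADIP, and 8 bins were shared. Annotated genes of 50 to 150 kb, the class of *Notch1* and *Notch2*, had a pair in Input in 79.5% of cases and in H3K27me3-RADIP in 80.5%, and in H3K27me3-RADIP only in 5.84%. The most heavily paired bin in both libraries was the middle of the gene, chr2:26475000-26499999, with 51 and 57 pairs, followed by the bin at its 3′ end with 39 and 47. The bin that holds the annotated start had 24 and 20 pairs. The DNA tag lay within the gene in 57.9% of Input pairs and in 50.5% of H3K27me3-RADIP pairs.

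Outside the gene, the *Notch1* pairs of the libraries lay partly in different bins. Bins listed in a single library held 9 to 14 pairs, where the fewest listed for any combination was 7. The share of such combinations over all RNAs was not computed, so they are not shown to be particular to *Notch1* or *Notch2*. DNA tags past the 3′ end numbered 22 in Input against 50 in H3K27me3-RADIP, and those before the start 55 and 59. Within the latter, the bin next to the start, chr2:26525000-26549999, had 12 and 24 pairs. The bins listed only in H3K27me3-RADIP, chr2:26350000-26374999 and chr2:26375000-26399999, held 25 pairs and contain the starts of *Dnlz*, *Card9*, *Snapc4*, *Entr1* and *Pmpca*. The bin listed only in Input, chr2:26600000-26624999, held 9 pairs and contains the start of *Agpat2*. *Sec16a*, whose product acts in vesicle formation at the endoplasmic reticulum, starts in a bin with 11 pairs in each library, and *Egfl7*, which encodes a secreted factor of the endothelium, in a bin with 14 and 15. The most distant bin, chr2:26175000-26199999, was listed in both libraries with 8 and 9 pairs and overlaps no coding gene.

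*Notch2*, a receptor with roles in kidney, liver and marginal zone B cells, is the longest member with 137 kb at chr3:98013527-98150361 on the plus strand. *Notch2* RNA had 242 pairs in Input against 264 in H3K27me3-RADIP (log2 fold change, 0.09; 95% interval, -0.16 to 0.35; adjusted *P* = 0.896 by the exact test). The interval of the fold change included 0, and several bins were listed in a single library. Of 13 bins in Input and 16 in H3K27me3-RADIP, 11 were shared. The 5 bins listed only in H3K27me3-RADIP held 51 pairs, and the 2 listed only in Input held 20. In the bin of the annotated start, chr3:98000000-98024999, there were 12 pairs in Input and 30 in H3K27me3-RADIP. In the last bins of the gene the order was the other way, with 30 and 17 pairs in chr3:98125000-98149999 and 18 and 11 in chr3:98150000-98174999, which also holds the start of *Adam30*.

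Beyond *Notch2*, the bins listed only in H3K27me3-RADIP reached chr3:97675000-97699999, centred at -326 kb from the start, with 9 pairs. This bin overlaps the 3′ end of *Pde4dip*. Downstream, the bin of *Reg4* had 10 pairs in H3K27me3-RADIP only. The bin of the *Phgdh* start, which encodes the enzyme that opens serine synthesis, was listed in both libraries with 8 and 9 pairs, and that of the *Sec22b* start, a vesicle fusion protein, with 11 and 11. The bin of the *Pde4dip* start, chr3:97875000-97899999, had 10 pairs in Input and was not listed in H3K27me3-RADIP, so each library listed a different bin of this gene.

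**Figure D2:**
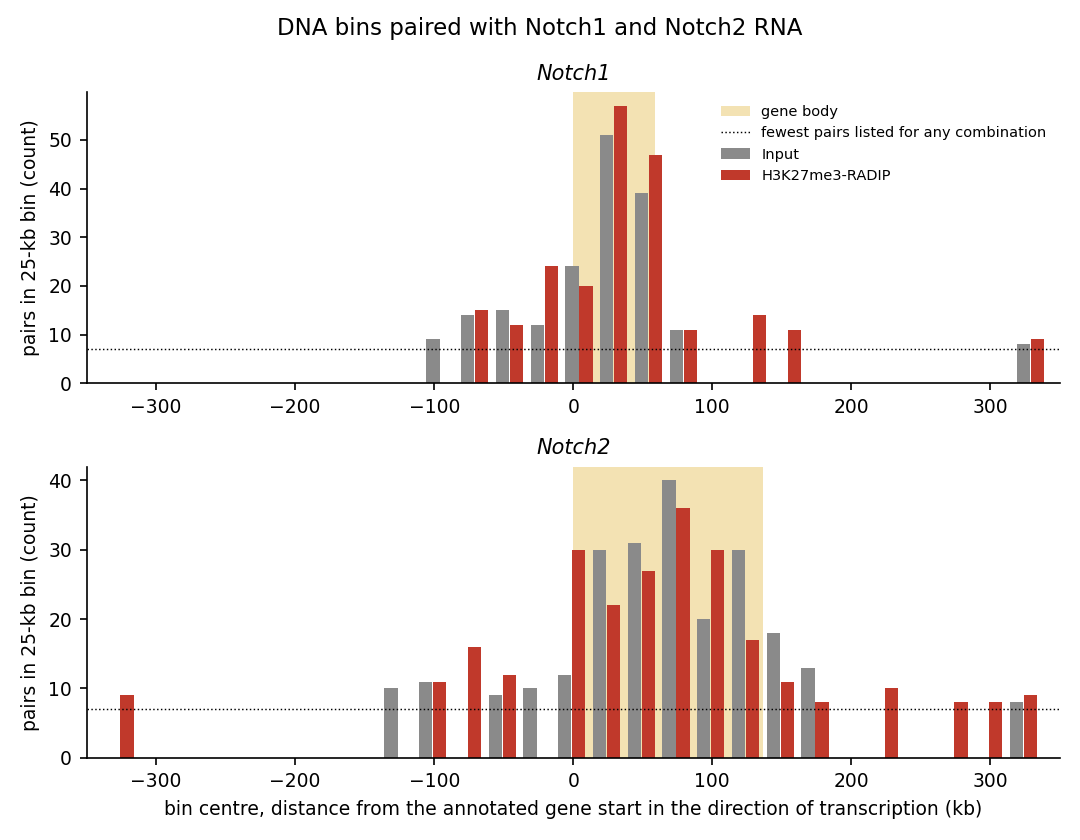
Pairs of *Notch1* and *Notch2* RNA in each 25-kb bin (counts) against the distance of the bin centre from the annotated gene start in the direction of transcription (kb), with the Input bar drawn to the left and the H3K27me3-RADIP bar to the right of the same centre. The shaded span is the gene, the dotted line marks 7 pairs, the fewest of any listed combination, and all 7 bins seen only in H3K27me3-RADIP lie outside the gene bodies.

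The share of long-range *cis* pairs, with more than 100 kb between the tags, was larger in H3K27me3-RADIP for *Notch2*. It was 60 of 242 pairs in Input, or 24.8% (95% Wilson interval, 19.8 to 30.6), and 91 of 264 pairs in H3K27me3-RADIP, a share of 34.5% (29.0 to 40.4). The shares differed by 9.68 percentage points (95% interval, 1.70 to 17.4; 2-sided Fisher's exact test, *P* = 0.0196, adjusted *P* = 0.0896 over 7256 RNAs). The same test called 22.5% of these RNAs, and 20% had a larger share in H3K27me3-RADIP, so the *Notch2* call was shared by many RNAs. With a limit of 200 kb the difference was 8.68 points and stayed called (adjusted *P* = 0.00739 by Fisher's exact test). With a limit of 50 kb it was 10.1 points and was no longer called (adjusted *P* = 0.102 by Fisher's exact test). At a q-value limit of 0.01 it fell to 3.87 points and the call was lost (adjusted *P* = 1 by Fisher's exact test). Over the combinations listed in both libraries it was -0.06 points, and with distances taken to the edge of the gene it was 4.44 points, neither of them called. Pairs of the same bin enter a table together, as did the 51 *Notch2* pairs in bins listed only in H3K27me3-RADIP. The test and its interval treat pairs as independent, so they cover counting error only.

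For *Notch1*, 24 of 183 pairs (13.1%; 9.0 to 18.8) were long-range in Input and 31 of 220 (14.1%; 10.1 to 19.3) in H3K27me3-RADIP. The difference of 0.98 points had a 95% interval of -5.94 to 7.64 and was not called (adjusted *P* = 1 by Fisher's exact test). It ranged from -1.95 to 7.68 points under the other settings and was called in none. The farthest pair spanned 319 kb for *Notch1* and 319 kb for *Notch2* in Input, against 311 and 464 kb in H3K27me3-RADIP. *Notch4*, *Jag1* and *Jag2* had no pair over 100 kb in either library, as did 48.5% of the RNAs tested.

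The median distance between the tags was longer in H3K27me3-RADIP for 5 of 5 shared members, and for 69.5% of 6916 protein-coding RNAs that had 10 or more *cis* pairs in each library. *Notch2* had the longest, at 30.1 kb against 46.8 kb in H3K27me3-RADIP, followed by *Notch1* with 18.6 and 24.4 kb. At a q-value limit of 0.01 the *Notch2* medians were 24.4 and 30.2 kb. The other medians lay between 0.89 and 6.37 kb. They were 1.38 and 5.04 kb for *Notch4*, 5.51 and 6.37 kb for *Jag1* and 0.89 and 2.58 kb for *Jag2*, or 1.41 and 2.62 kb for *Jag2* with repeated tag positions counted once. All medians became 0 kb when the distance was taken from the DNA tag to the nearest edge of the gene. Over all *cis* pairs of the libraries the medians were 44.0 and 68.5 kb.

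**Figure D3:**
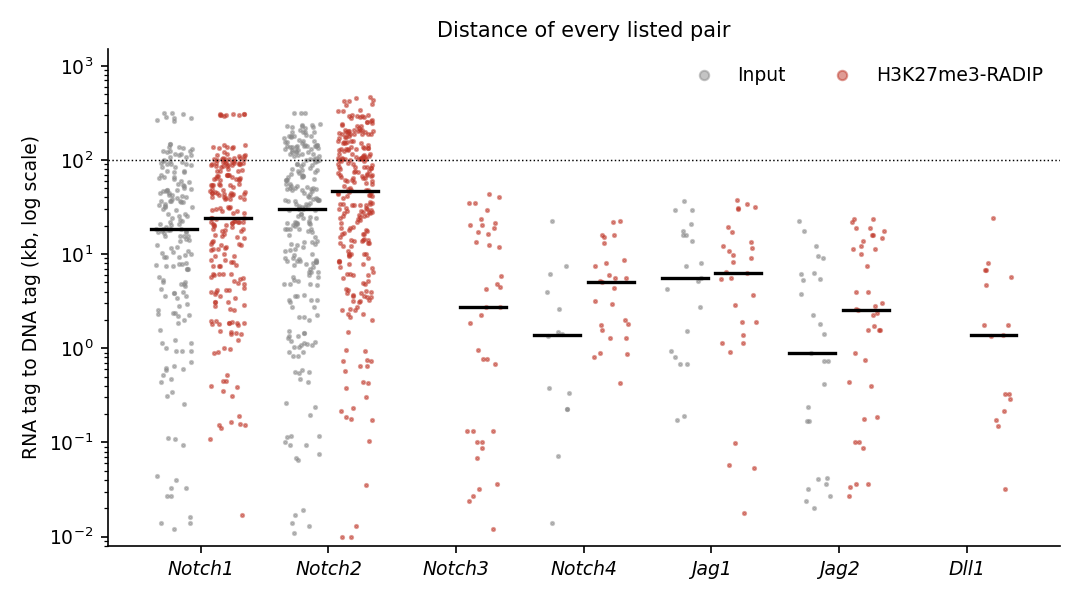
Distance between the RNA tag and the DNA tag of every pair of the 7 listed members (kb, log scale) in Input (grey) and H3K27me3-RADIP (red), with black bars at the medians, a dotted line at 100 kb and pairs under 0.01 kb drawn at 0.01 kb. The horizontal spread within a column has no meaning, and pairs over 100 kb appear for *Notch1* and *Notch2* alone.

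*Notch3*, a receptor of vascular smooth muscle, lies at chr17:32120820-32166852 on the minus strand and spans 46.0 kb. It had no listed pair in Input and 39 in H3K27me3-RADIP, spread over the 3 bins of its own gene with 14 pairs in the bin of the start, 14 in the middle and 11 at the 3′ end. The median distance was 2.75 kb and the longest 43.5 kb. Of 1448 protein-coding RNAs listed only in H3K27me3-RADIP, with a median of 9 pairs each, 5 (0.345%) had at least 39 pairs. Among annotated protein-coding genes of 15 to 50 kb, 9.58% were listed in H3K27me3-RADIP only. A long non-coding gene on the opposite strand, *Gm17276*, overlaps the 3′ part of *Notch3* and was likewise listed in H3K27me3-RADIP only, with 7 pairs. *Gm14207*, on the opposite strand at *Dll4*, which was itself listed in neither library, also had 0 and 7 pairs.

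*Notch4*, a receptor of the endothelium, lies at chr17:34564268-34588503 on the plus strand and spans 24.2 kb. Its pairs, 14 in Input against 27 in H3K27me3-RADIP, lay without exception in chr17:34575000-34599999, which covers its 3′ part and the starts of *Gpsm3*, *Pbx2* and *Ager*. The log2 fold change was 0.92 (95% interval, -0.07 to 1.96; adjusted *P* = 0.292 by the exact test), the largest among the 5 shared members, and its interval included 0. The bin that holds its start was not listed in either library.

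*Jag1*, the ligand altered in Alagille syndrome, lies at chr2:137081456-137116644 on the minus strand and spans 35.2 kb. *Jag1* RNA had 21 pairs in Input against 30 in H3K27me3-RADIP in the same 2 bins, with 11 and 15 pairs in the 3′ bin and 10 and 15 in the bin of the start. The log2 fold change was 0.48 (95% interval, -0.37 to 1.36; adjusted *P* = 0.611 by the exact test). *Jag2*, a ligand with roles in limb and craniofacial development, lies at chr12:112907819-112929776 on the minus strand and spans 22.0 kb. *Jag2* RNA had 27 pairs in Input against 40 in H3K27me3-RADIP, also in the same 2 bins, and its log2 fold change was 0.53 (95% interval, -0.21 to 1.30; adjusted *P* = 0.478 by the exact test). The counts of its bins parted: the bin over most of the gene had 17 and 31 pairs, and the bin of the start, which also holds the start of *Nudt14*, had 10 and 9.

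*Dll1*, the Delta-like ligand of the presomitic mesoderm and neural precursors, is only 9.5 kb long and lies at chr17:15367354-15376872 on the minus strand. It was absent from Input and had 17 pairs in H3K27me3-RADIP, with 9 in the bin of its 3′ part and 8 in the bin of its start, which also holds the start of *Fam120b*. The median distance was 1.37 kb. Of the protein-coding RNAs listed only in H3K27me3-RADIP, 196 (13.5%) had at least 17 pairs, and of annotated protein-coding genes of 5 to 15 kb, 7.63% were listed in H3K27me3-RADIP only. *Dll3*, a ligand that acts within the cell to dampen Notch signaling, at chr7:28293553-28302238, and *Dll4*, the ligand of sprouting blood vessels, at chr2:119325784-119335962, had no listed pair in either library. Among genes of 5 to 15 kb, the class of *Dll1*, *Dll3* and *Dll4*, 20.4% had a pair in Input and 22.5% in H3K27me3-RADIP.

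The RNA tags showed which part of the transcripts had been captured. Introns held 88.9% of the tags of all protein-coding RNAs in Input against 89.6% in H3K27me3-RADIP, and *Notch2* was close to this with 211 of 242 (87.2%; 82.4 to 90.8) and 232 of 264 (87.9%; 83.4 to 91.3). *Notch1* was lower, with 129 of 183 (70.5%; 63.5 to 76.6) and 166 of 220 (75.5%; 69.4 to 80.7). Its tags in coding sequence numbered 23 in Input and 13 in H3K27me3-RADIP. A further 20 and 36 of its tags, or 10.9% (7.2 to 16.3) and 16.4% (12.1 to 21.8), lay in chr2:26498155-26501959. This stretch is an exon of a retained-intron transcript in the annotation, and these tags carry the label exon. How much of the stretch is intron in the coding transcript was not computed. Another 8 and 9 tags lay before the first base of the coding transcript, at 26503822, within the longer gene model.

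The smaller members varied more. Intronic tags of *Jag1* were all 21 in Input, and 28 of 30 in H3K27me3-RADIP. *Jag2* had 22 of 27 intronic tags (81.5%; 63.3 to 91.8) in Input and 26 of 40 (65.0%; 49.5 to 77.9) in H3K27me3-RADIP, and its tags in coding sequence numbered 1 and 9. *Notch4* had 4 of 14 (28.6%; 11.7 to 54.6) and 16 of 27 (59.3%; 40.7 to 75.5), with 9 and 7 tags in coding sequence. The intervals of the libraries overlapped for each of these genes. In H3K27me3-RADIP, *Notch3* had 29 of 39 intronic tags and 6 in coding sequence, and *Dll1* had 6 of 17 intronic tags, with 6 in the 5′ untranslated region and 4 in coding sequence.

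**Figure D4:**
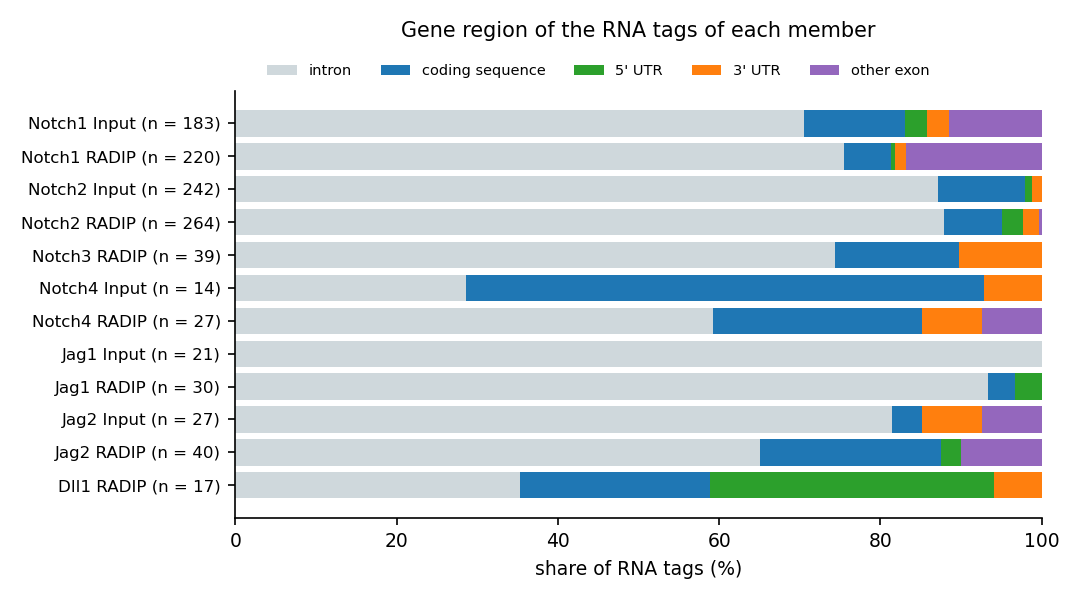
Share of RNA tags (%) by the region of the transcript, for each listed member and library, with n as the number of tags and RADIP standing for H3K27me3-RADIP. The intron share runs from 28.6% for *Notch4* in Input to 100% for *Jag1* in Input, and *Dll1* has 6 of 17 tags in its 5′ untranslated region.

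CpG-rich promoters are the usual sites of H3K27me3 in mESCs, and the promoters of the members differ in this. The 250 bases before the start, from RefSeq on GRCm38 and 5′ to 3′ on the strand of the gene, are shown for *Notch3* and *Dll1*, listed in H3K27me3-RADIP only, and for *Notch2*, whose own DNA tags near the start are counted below. Capitals mark each CG.
Notch2 promoter: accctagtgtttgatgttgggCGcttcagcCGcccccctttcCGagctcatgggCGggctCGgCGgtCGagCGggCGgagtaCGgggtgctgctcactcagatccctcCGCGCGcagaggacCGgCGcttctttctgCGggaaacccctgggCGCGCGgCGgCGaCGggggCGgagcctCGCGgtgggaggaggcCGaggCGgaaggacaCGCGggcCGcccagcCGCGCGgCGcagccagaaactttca
Notch3 promoter: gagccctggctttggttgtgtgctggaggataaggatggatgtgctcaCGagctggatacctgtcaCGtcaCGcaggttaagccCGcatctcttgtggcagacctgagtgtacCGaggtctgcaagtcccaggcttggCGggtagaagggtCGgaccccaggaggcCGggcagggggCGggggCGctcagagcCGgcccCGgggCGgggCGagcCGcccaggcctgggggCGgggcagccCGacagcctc
Dll1 promoter: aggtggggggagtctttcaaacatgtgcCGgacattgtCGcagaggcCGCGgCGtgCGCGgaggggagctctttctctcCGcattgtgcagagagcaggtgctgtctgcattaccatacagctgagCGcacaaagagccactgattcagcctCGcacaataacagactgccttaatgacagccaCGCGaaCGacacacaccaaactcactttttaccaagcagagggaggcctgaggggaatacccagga
They lie at chr3:98013288-98013537, chr17:32166891-32167140 and chr17:15376933-15377182, with *Notch2* on the plus strand and the others on the minus strand. The *Notch2* window held 34 CG, a number that 3.53% of 32851 RefSeq promoters of this length reached, *Notch3* held 17 (23.5% of promoters) and *Dll1* 13 (31.5%). The window of *Jag2* held the most, 54 (0.0152%). The windows of *Jag1* held 20 CG, *Notch1* 16, *Dll4* 14, *Dll3* 10 and *Notch4* 4, and the median over all promoters was 6. A second, internal RefSeq start of *Dll1*, at 15375823, had a window with 21.

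Within 2 kb of the RefSeq starts, DNA tags of the member's own RNA numbered 4 in Input and 11 in H3K27me3-RADIP for *Notch2* and 0 and 5 for *Jag1*. They numbered 9 and 5 for *Notch1* and 6 and 3 for *Jag2*, so the order of the libraries differed among members listed in both. *Notch3* and *Dll1* had no line in Input, so their Input counts were 0 in advance. In H3K27me3-RADIP, *Notch3* had 3 such tags. *Dll1* had 5 at its outer start and 7 at the internal one, and these windows overlap, so tags can be counted in both. *Notch4* had none, nor had *Dll3* and *Dll4*, which were listed in neither library. These counts were too small for a comparison and were not tested.

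The DNA of the member genes was also paired with other RNAs, a readout that does not depend on the members' own transcripts. Other RNAs were listed at 6 of the 9 genes in Input, and at 7 in H3K27me3-RADIP. For *Jag2* such pairs numbered 20 in Input against 67 in H3K27me3-RADIP (log2 fold change, 1.63; 95% interval, 0.89 to 2.43; adjusted *P* = 0.00125 by the exact negative binomial test with an assumed coefficient of variation of 0.1). It was the single member called among 6 tested, and 27% of 11775 coding genes were called, 16.7% higher and 10.3% lower in H3K27me3-RADIP. With an assumed variation of 0.4 it was not called, nor when the bin of the start alone was taken, where the log2 fold change was 0.56. Most of the *Jag2* difference came from RNA of *Brf1*, a nearby gene for a subunit of the RNA polymerase III initiation factor. *Brf1* had 12 pairs in 1 bin in Input and 41 in 2 bins in H3K27me3-RADIP. In H3K27me3-RADIP alone there were also 8 pairs of *Mta1*, 8 of *Nudt14* and 10 of *Gm22973*, a non-coding RNA at a median of 53871 kb on the same chromosome. In Input alone there were 8 of *Gm26583*. Combinations listed in a single library thus entered the *Jag2* test, and it was not run over combinations listed in both.

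At *Notch3*, pairs of other RNAs numbered 93 in Input and 149 in H3K27me3-RADIP (log2 fold change, 0.56; 95% interval, 0.18 to 0.95; adjusted *P* = 0.142 by the exact test), so this gene was covered in both libraries although its own RNA was listed in H3K27me3-RADIP only. They included *Rrp1b* with 10 and 33 pairs and *Hsf2bp* with 9 and 23. *Dll1* had no such pair in Input and 18 in H3K27me3-RADIP, 9 of *Ermard*, a median of 299.7 kb away on the same chromosome, and 9 of *Malat1*, an abundant nuclear non-coding RNA of another chromosome and the only *trans* source at any member. *Dll3* and *Dll4*, without pairs of their own, were paired with RNAs of other genes of their chromosomes. *Dll3* had 70 and 92 pairs, of which 70 and 75 were of *Supt5*, and in H3K27me3-RADIP also 9 of *Selenov* and 8 of *Sipa1l3*, at a median of 1127 kb, and *Dll4* had 31 and 41 pairs, all of *Ino80*, a chromatin remodeler.

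The other members were not called either. *Notch1* had 41 and 43 such pairs (log2 fold change -0.05, 95% interval, -0.70 to 0.61), from *Sec16a* with 21 and 34, *Vav2* with 20 in Input and *Pmpca* with 9 in H3K27me3-RADIP. *Jag1* had 26 and 22 pairs, all of *Slx4ip* (log2 fold change -0.36). At a q-value limit of 0.01 the log2 fold change turned to 0.73 at *Notch1* and was -1.11 at *Jag1*, neither of them called. No other RNA was listed at *Notch2* or *Notch4* in either library.

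**Figure D5:**
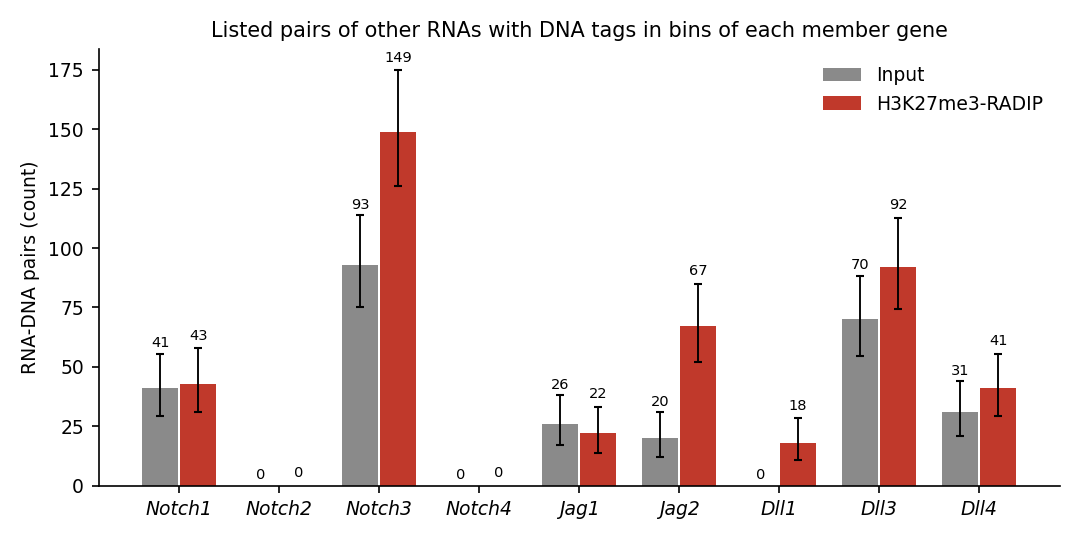
Pairs of other RNAs whose DNA tag lies in a 25-kb bin overlapping each member gene, in Input (grey) and H3K27me3-RADIP (red), as counts with 95% Poisson intervals that cover counting error only. The counts are not scaled to library totals. They are 20 and 67 pairs for *Jag2*, which alone was called, 93 and 149 for *Notch3* and 0 and 18 for *Dll1*, which was not tested, and 0 marks a gene with no such pair.

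Of 49 other genes of the Notch pathway, 30 had pairs in both libraries, 5 in H3K27me3-RADIP only, 0 in Input only and 14 in neither. Over all annotated protein-coding genes, 42.3% were listed in Input, 43.7% in H3K27me3-RADIP and 6.59% in H3K27me3-RADIP only, which leaves a part listed in Input only. The pathway counts of 5 and 0 are small, and whether they differ from those of all genes was not tested. Among the 30, 2 were called higher and 4 lower in H3K27me3-RADIP, beside 7.15% and 8.29% of all shared protein-coding RNAs, 24 were not called, and the median log2 fold change was 0.05. These calls rest on the assumed coefficient of variation of 0.1. Over all shared protein-coding RNAs 1259 were called with it, 120 with 0.2 and 0 with 0.4. The genes called higher were *Maml3*, a coactivator of the Notch and Rbpj complex, with 88 and 175 pairs (log2 fold change 0.96, adjusted *P* = 0.0117 by the exact test), and *Dner*, a neuronal membrane protein related to Delta, with 40 and 105 (1.36, adjusted *P* = 0.00201). The genes called lower were *Kat2b*, a histone acetyltransferase, with 202 and 123 pairs (-0.75), *Itch*, a ubiquitin ligase, with 126 and 75 (-0.78), *Poglut1*, which glycosylates the receptors, with 32 and 11 (-1.57), and *Hdac2*, a histone deacetylase of corepressor complexes, with 28 and 8 (-1.84).

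Among the pathway RNAs with the most pairs, those described here work at the nuclear end of the pathway or in turnover. *Rbpj* had 1929 and 2004 pairs and *Crebbp*, a coactivator acetyltransferase, 752 and 593. *Fbxw7*, the ubiquitin ligase subunit that removes the Notch intracellular domain, had 564 and 715, and *Spen*, a corepressor that binds Rbpj, 423 and 559. None of these was called. The target genes *Hes1*, *Hes5*, *Hey1*, *Hey2* and *Nrarp* were listed in neither library and *Heyl* in H3K27me3-RADIP only, with 10 pairs. The other genes listed only in H3K27me3-RADIP were *Mib2*, a ubiquitin ligase that acts on the ligands, with 15 pairs, *Mfng* and *Lfng*, which extend sugars on the receptors, with 12 and 8, and *Dlk1*, a Delta-like protein, with 11.

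Among the same 6916 protein-coding RNAs, those nearest to *Notch1* in the log2 number of pairs and the log2 median distance in each library were *Mthfd1* with 181 and 217 pairs, *Rfx2* with 185 and 213, and *Atp5o* with 197 and 223. Those nearest to *Notch2* were *Aoah* with 252 and 261 pairs and medians of 32.1 and 51.4 kb, *Tom1l2* with 228 and 281, and *Pias1* with 248 and 239. This likeness rests on 2 libraries and 4 values per RNA.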

How the data were processed

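RADICL-seq libraries with and without H3K27me3 immunoprecipitation were examined in PGK12.1 mESCs. The authors split each read into its tags and mapped both to mm10 (CASAVA 1.8.2, STAR 2.5.0a and BWA 0.7.15-r1140 are named in the submitters' processing notes), assigned GENCODE genes to the RNA side and merged the libraries of each condition. The deposited p-values and q-values were computed by the authors with a modified CHiCANE model per RNA and 25-kb bin, and pairs with a q-value above 0.1 were not listed. Only the table lines were counted here, so pairs before background removal were not analysed.

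The members, the pathway and marker lists and the rules for naming genes were chosen with earlier results of these data known. Genes named were all members, every called pathway gene and the 5 with the most pairs, the 3 nearest RNAs for members with at least 50 pairs in both libraries, up to 5 genes with their start in a paired bin, and up to 3 other RNAs at each member gene. Some genes that meet these rules are not reported here. *Nrarp*, the *Hes* and *Hey* genes, the pathway genes listed in H3K27me3-RADIP only, *Reg4*, *Dnlz*, *Card9*, *Sec16a* and *Agpat2* as genes in paired bins, *Mta1*, *Nudt14* and *Gm26583* as tied RNAs at *Jag2*, and *Gm17276* and *Gm14207* were named after their values were seen, as was the choice of promoters shown.

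Pairs were counted per RNA name. TMM factors (trims of 30% and 5%), an exact negative binomial test conditional on the total with an assumed coefficient of variation of 0.1 and Benjamini–Hochberg adjustment were coded in Python 3.11.15 (numpy 2.4.6, pandas 2.3.3, scipy 1.17.1, matplotlib 3.10.9) and tested on simulated data. Pairs of other RNAs at a gene were scaled by library totals. Long-range shares were compared by 2-sided Fisher's exact tests, and shares have 95% Wilson intervals. Distances were taken between tag centres, and tags are 25 bases long. Gene positions came from GENCODE M21, an older release than the authors used on the same build, and 9779 of 10180 gene identifiers in Input and 10252 of 10666 in H3K27me3-RADIP matched with their version. Sequences came from the GRCm38 reference and RefSeq promoters. Alternatives were a q-value limit of 0.01, repeated positions counted once, other assumed variation, other size factors, a filter on low counts, combinations listed in both libraries, gene identifiers, distance limits of 50 and 200 kb, distance to the gene edge, and the bin of the start alone.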

Additional observations from a re-analysis of the deposited data

How the results depend on the processing

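Of the alternatives computed, 110 kept their direction and their side of the threshold or, for medians, lay within the 95% interval of the main median and, for counts, within 1.5 times the main count. Another 19 moved, 7 turned direction and 5 lost their call. The number of shared protein-coding RNAs called was 120 with an assumed coefficient of variation of 0.2, 0 with 0.4 and 39 over the combinations listed in both libraries, against 1259. The log2 fold change of *Notch2*, never called, was -0.039 at a q-value limit of 0.01 and -0.0069 over combinations listed in both libraries. The larger long-range share of *Notch2* was not called with a limit of 50 kb (10.1 points), with distance to the gene edge (4.44 points) or at a q-value limit of 0.01 (3.87 points), stayed called with a limit of 200 kb (8.68 points), and was -0.063 points over combinations listed in both libraries. For *Notch1*, which was not called, that difference was -0.28 points with a limit of 200 kb, -0.37 with distance to the gene edge and -1.95 over combinations listed in both libraries, but 7.68 with a limit of 50 kb and 6.21 at a q-value limit of 0.01, against 0.98. Pairs of other RNAs at *Jag2* were not called in the bin of the start alone (log2 fold change, 0.56) or with an assumed variation of 0.4 (1.63), and at a q-value limit of 0.01 the log2 fold change was 0.73 at *Notch1* and -1.11 at *Jag1*, against -0.05 and -0.36, neither of them called. The number of coding genes with a called change of such pairs was 3185 in the main setting, 1536 for the start bin alone and 0 with a variation of 0.4. The number of RNAs with a called long-range difference was 1631 in the main setting and 190 over combinations listed in both libraries. The *Notch2* medians at a q-value limit of 0.01 were 24.4 kb (Input) against 30.2 kb, and the *Jag2* median in Input was 1.41 kb with repeated positions counted once, against 0.89 kb. The causes were not tested. No paired analysis was possible because the replicates were merged and the tables carry no replicate numbers, and for the same reason no replicate could be left out in turn. At this depth the small members, with 14 to 40 pairs, allow wide intervals, and a member below 7 pairs in a bin cannot be listed.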
